A study of Oryza sativa Japonica Group with 6 samples.

Results

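The transcripts described here had their lowest level in rice seedling shoots 1 day after re-watering, below both the dried shoots and the well-watered shoots. A transcript was taken when the higher of its 2 rehydration values was at most 0.67 times the lowest of its 4 dehydration and control values, and when the mean of those 4 values was at least 5 RPKM (reads scaled by the length of the transcript and by the mapped reads of its library). Of 66153 transcript models, 51 met this rule, and they belonged to 50 of 55801 loci. They were selected on the same RPKM values that are given below, so their low level after rehydration is a description and no finding. By the same rule 3693 transcripts were lowest after dehydration and 1756 were lowest in the control. Relative to the transcripts that reached 5 RPKM in the other 4 libraries, these were 0.351% for rehydration (of 14523), 24.8% for dehydration (of 14899) and 12.5% for the control (of 14095).

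The shoots came from wild-type seedlings of the japonica cultivar Nipponbare, grown in continuous light on MS (Murashige and Skoog) medium. Rehydrated seedlings were air-dried for 8 h, re-watered for 24 h and harvested at 11 days of age, dehydrated seedlings were air-dried for 8 h and harvested at 10 days, and control seedlings were left unstressed and harvested with the dehydrated seedlings. Each condition had 2 libraries, each from its own pool of plants. Rehydration and the later age go together in both libraries and cannot be told apart. According to the study, the rehydrated shoots mixed recovered and damaged leaf parts. In bulk samples fewer cells of a type and less RNA per cell cannot be told apart.

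When a drying plant is watered again, most transcripts that drought raised or lowered move back towards their unstressed level within hours to days. A transcript that ends below both states follows another course. The abscisic acid (ABA) pathway is the main hormonal route of the drought response, whereas auxin signaling, through short-lived Aux/IAA repressors, controls cell expansion and growth. A locus can also give several transcript models, by alternative splicing or alternative starts and ends, and a single model can move while the sum of its locus does not.

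The libraries were of similar size. The steps between low RPKM values gave depths relative to the first control library of 0.938 and 0.862 for rehydration, 0.904 and 0.994 for dehydration and 1.00 and 0.919 for the control. The summed RPKM of a library lay between 539105 and 573137. Among the green-tissue markers, the chlorophyll a-b binding protein model LOC_Os11g13890_1 had 1367 and 1063 RPKM after rehydration, 34.6 and 74.0 RPKM after dehydration and 1556 and 1252 RPKM in the control. Protochlorophyllide oxidoreductase (LOC_Os10g35370_1) had 132 and 104 RPKM after rehydration, 4.69 and 6.40 RPKM after dehydration and 123 and 118 RPKM in the control. All libraries thus held green-tissue transcripts, at far lower levels in the dehydrated shoots, and the part of this shift in the results below was not tested.

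Most of the 51 transcripts were weakly expressed. The mean over the 4 dehydration and control libraries ran between 5.15 and 2472 RPKM with a median of 9.12 RPKM, against a median of 15.1 RPKM over all transcripts that reached the level of the rule. For 29 of the 51 this mean was below 10 RPKM. After correction for relative depth, the values of all 51 came out as whole reads within a relative tolerance of 1e-05, and the smallest such read numbers are given here. Summed over both rehydration libraries, these ran between 0 and 10813 reads with a median of 30, and 33 transcripts had fewer than 30 reads in each rehydration library. At this depth many of the ratios were loosely fixed. Of the 43 transcripts above 0 in all 4 dehydration and control libraries, 15 had a ratio whose 95% counting interval (conditional exact binomial, higher rehydration value against lowest other value) reached 1. In 35 of the 43 the interval reached above 0.67, the limit of the rule. These intervals cover counting error only, and reads without molecular identifiers are not independent molecules.

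Zeros entered the list in different ways. In both rehydration libraries 12 transcripts were listed at 0, of which 4 were above 0 in all 4 other libraries. The other 8 were also at 0 in at least 1 dehydration or control library and passed the rule as 0 against 0. The number with a strictly lower value after rehydration was therefore 43. A further 6 transcripts were at 0 in 1 of the 2 rehydration libraries.

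**Figure D1:**
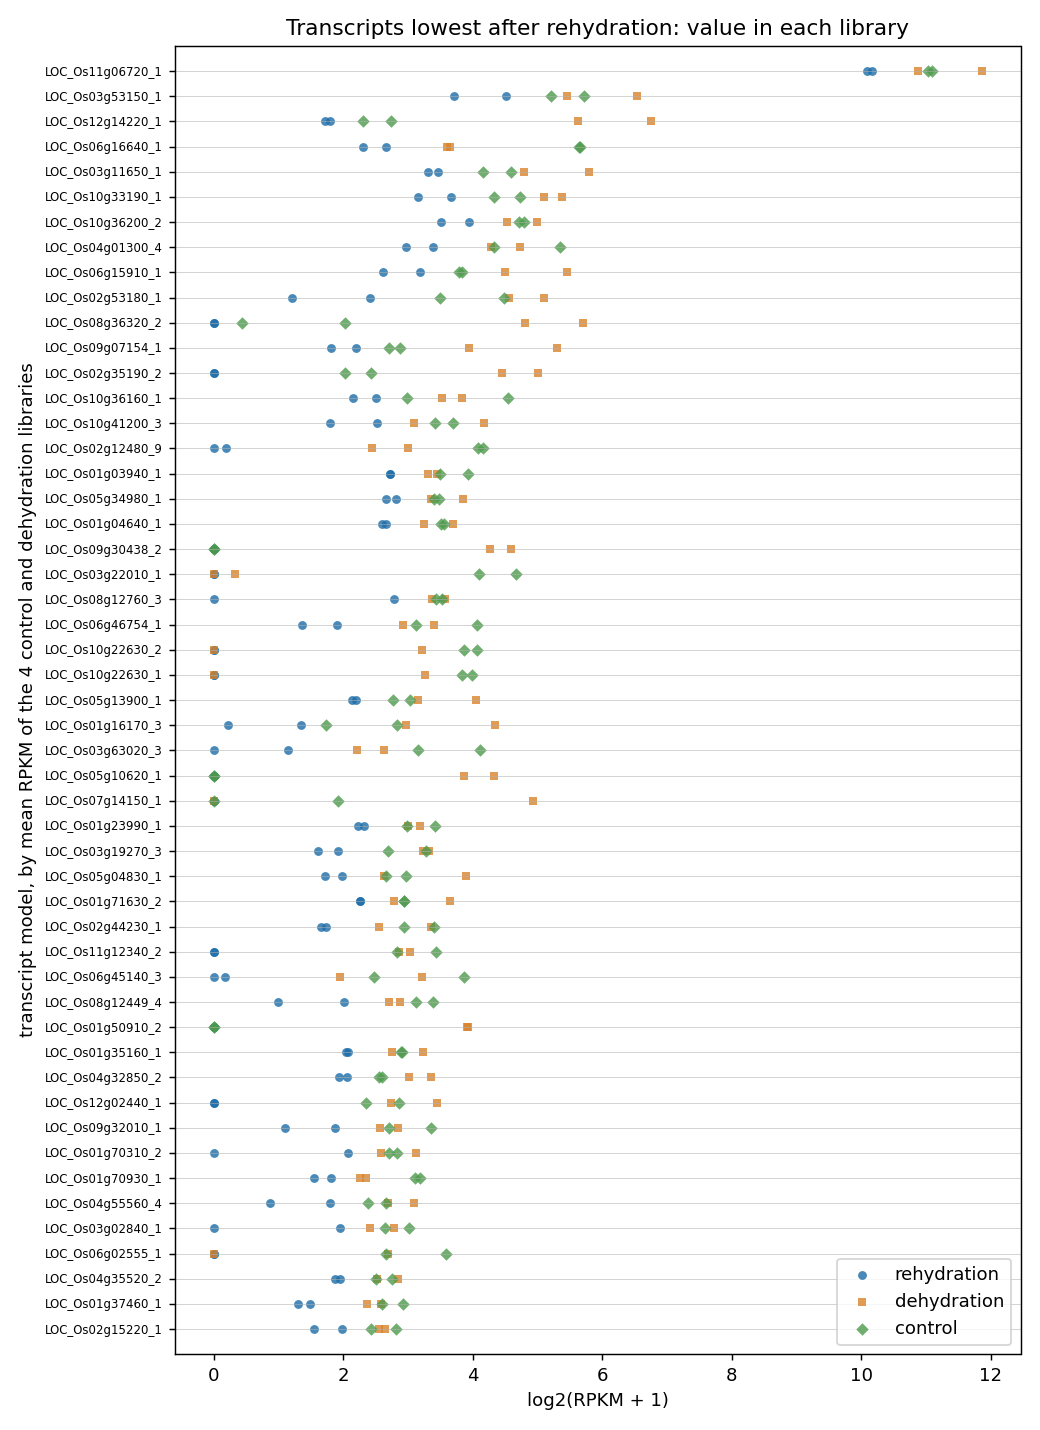
RPKM of the 51 transcripts on a log2(RPKM + 1) axis, with 1 row per transcript model ordered by the mean of the dehydration and control libraries, and 2 points per condition (circles, rehydration; squares, dehydration; diamonds, control). The rehydration points lie at the left of each row, and in 12 rows both are at 0, in 8 of them together with a dehydration or control point.

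Values near the limits of the rule differed little from those of transcripts left out. Just inside the ratio of 0.67 were LOC_Os10g36160_1 (0.669), LOC_Os01g16170_3 (0.667) and LOC_Os02g15220_1 (0.666), and just outside were LOC_Os04g33860_1 (0.671), LOC_Os03g54050_2 (0.673) and LOC_Os11g18730_1 (0.673). Just above the mean of 5 RPKM were LOC_Os02g15220_1 (5.15 RPKM), LOC_Os01g37460_1 (5.20 RPKM) and LOC_Os04g35520_2 (5.35 RPKM). Just below it were LOC_Os04g07890_1 (4.65 RPKM), LOC_Os07g11010_1 (4.60 RPKM) and LOC_Os01g16170_5 (4.54 RPKM), the last being another model of a locus already on the list. A ratio above 0.6 was found in 22 transcripts and a ratio of 0.5 or less in 12, both among the 43 above 0 in the other libraries.

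In the study's tables, as read here, 11 of the 51 transcripts are described by their own model. Another 5 are described through another model of the same locus, which leaves 35 without a description. Descriptions were found for 3759 models in all, fewer than the study called changed between dehydration and control. A missing description may therefore reflect what was read and not the study. The described transcripts are given by role, beginning with those tied to auxin. LOC_Os03g53150_1 is IAA13, a member of the Aux/IAA family of auxin response repressors. It had 12.1 and 21.9 RPKM after rehydration, 43.0 and 92.4 RPKM after dehydration and 35.9 and 51.9 RPKM in the control. Both rehydration values were below all others, and the dehydration and control values overlapped. The higher rehydration value was 0.610 times the lowest other value (95% counting interval 0.494 to 0.750, from 142 and 270 reads). Its second model had 0.705 and 2.05 RPKM after rehydration, 2.20 and 2.99 RPKM after dehydration and 2.65 and 4.56 RPKM in the control, so model 1 carried most of the locus in every library.

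LOC_Os03g11650_1 is annotated as an ATMAP70 protein, a family known in Arabidopsis as microtubule-associated proteins, and is the sole model of its locus. The study's tables also describe this transcript as a myosin II heavy chain-like family protein, and ATMAP70 is used here as a label. Its level was 8.89 and 10.1 RPKM after rehydration, 26.7 and 54.5 RPKM after dehydration and 16.8 and 23.0 RPKM in the control. All 3 conditions were separate, with dehydration the highest. Like IAA13, it is in the study's list of auxin-induced genes from separate microarrays. LOC_Os10g36160_1, a nonspecific lipid-transfer protein of the auxin-repressed list, is the other sole-model transcript with a description. Lipid-transfer proteins are small secreted proteins that bind lipids at the cell surface. It had 3.43 and 4.66 RPKM after rehydration, 13.3 and 10.5 RPKM after dehydration and 6.96 and 22.4 RPKM in the control, with a wide gap between the control libraries.

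Other described transcripts belong to hormone and sugar metabolism. LOC_Os02g53180_1 encodes ACC oxidase, which carries out the last step of ethylene synthesis. It had 1.32 and 4.32 RPKM after rehydration, 22.5 and 33.4 RPKM after dehydration and 10.2 and 21.3 RPKM in the control, a ratio of 0.422 (interval 0.280 to 0.623). LOC_Os02g44230_1 is similar to trehalose-6-phosphate phosphatase, the enzyme that releases trehalose from its phosphate, and is in the ABA-repressed list. It had 2.14 and 2.33 RPKM after rehydration, 4.85 and 9.27 RPKM after dehydration and 6.66 and 9.53 RPKM in the control. Its dehydration and control values overlapped.

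Among transcription factors, LOC_Os12g02440_1 (WRKY95) was listed at 0 in both rehydration libraries, with 9.94 and 5.67 RPKM after dehydration and 6.30 and 4.09 RPKM in the control. WRKY factors are a plant family best known from stress and defence responses. The MYB-related LOC_Os10g41200_3 had 2.49 and 4.74 RPKM after rehydration, 17.1 and 7.52 RPKM after dehydration and 11.9 and 9.66 RPKM in the control. LOC_Os05g10620_1 belongs to the NAC family, whose founding member is no apical meristem. It was listed at 0 in both rehydration and both control libraries and had 19.2 and 13.6 RPKM after dehydration. For these 2 models the conditions order differently, since the MYB-related model overlapped between dehydration and control and the NAC model was seen after dehydration alone. LOC_Os04g55560_4, whose locus has other models with an AP2 DNA-binding domain, had 0.829 and 2.48 RPKM after rehydration, 7.52 and 5.47 RPKM after dehydration and 5.34 and 4.23 RPKM in the control.

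Stress and transport proteins made up most of the remaining descriptions. LOC_Os01g50910_2 is a model of a group 3 late embryogenesis abundant (LEA) protein, a family that protects cells during drying. It was at 0 in both rehydration and both control libraries and at 14.0 and 14.2 RPKM after dehydration. LOC_Os02g35190_2, a chloride channel protein of the family that moves anions across membranes, was at 0 in both rehydration libraries. It had 31.4 and 20.8 RPKM after dehydration and 3.09 and 4.40 RPKM in the control, from 505 and 369 reads after dehydration and 55 and 72 in the control. The PQ loop repeat model LOC_Os01g16170_3 had 1.56 and 0.170 RPKM after rehydration, 19.3 and 6.85 RPKM after dehydration and 2.34 and 6.13 RPKM in the control. Its second rehydration value rested on 2 reads.

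A protein kinase locus, a universal stress protein locus and a basic proline-rich protein locus were described through other models. The kinase model LOC_Os03g63020_3 had 0 and 1.22 RPKM after rehydration, 5.17 and 3.64 RPKM after dehydration and 16.3 and 7.95 RPKM in the control. The universal stress protein model LOC_Os03g19270_3 had 2.06 and 2.80 RPKM after rehydration, 8.38 and 9.08 RPKM after dehydration and 8.70 and 5.44 RPKM in the control. The proline-rich protein model LOC_Os04g32850_2 had 2.81 and 3.17 RPKM after rehydration, 7.06 and 9.28 RPKM after dehydration and 5.06 and 4.85 RPKM in the control. The kinase model was highest in the control and the proline-rich protein model after dehydration, while the universal stress protein model overlapped between them.

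The transcripts with the highest levels were mostly without a description. LOC_Os11g06720_1 stood far above the rest, with 1153 and 1084 RPKM after rehydration, 1887 and 3737 RPKM after dehydration and 2092 and 2175 RPKM in the control. Its ratio of 0.611 had the narrowest counting interval, 0.591 to 0.632, from 5800 reads in a rehydration library and 9145 in a dehydration library. It is the sole model of its locus. The ratio lay close to the limit of 0.67 and the interval below it.

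Below it in level came IAA13 and a pair of undescribed sole-model transcripts with opposite courses on drying. LOC_Os12g14220_1 had 2.28 and 2.48 RPKM after rehydration, 48.4 and 107 RPKM after dehydration and 3.97 and 5.65 RPKM in the control. Only 7 reads stood behind each rehydration value and 13 and 17 behind the control values, so its ratio of 0.625 had an interval of 0.211 to 1.68. LOC_Os06g16640_1 had 3.97 and 5.33 RPKM after rehydration, 11.1 and 11.6 RPKM after dehydration and 49.6 and 49.0 RPKM in the control. Its rehydration values were the lowest, its dehydration values lay between and its control values were the highest, with no overlap and a ratio of 0.479 (interval 0.324 to 0.697).

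Of the 10 transcripts of highest level, 4 more were without a description. LOC_Os10g33190_1 had 11.7 and 7.96 RPKM after rehydration, 40.9 and 33.4 RPKM after dehydration and 25.7 and 19.2 RPKM in the control. LOC_Os06g15910_1 had 8.15 and 5.12 RPKM after rehydration, 42.8 and 21.6 RPKM after dehydration and 12.8 and 13.4 RPKM in the control. For both, the dehydration values lay above the control values in these libraries. LOC_Os10g36200_2 had 14.4 and 10.4 RPKM after rehydration, 22.0 and 31.0 RPKM after dehydration and 26.6 and 25.3 RPKM in the control. LOC_Os04g01300_4 had 6.80 and 9.45 RPKM after rehydration, 25.5 and 18.4 RPKM after dehydration and 39.9 and 19.2 RPKM in the control. In the last 2 the dehydration and control values overlapped.

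Small ratios without a value of 0 in both rehydration libraries were found mostly in single models of larger loci. LOC_Os02g12480_9 had the smallest, 0.0321 (interval 0.00381 to 0.121), from 2 and 0 reads after rehydration, 94 and 66 reads after dehydration and 250 and 217 reads in the control. LOC_Os06g45140_3 followed with 0.0461, from 1 read in the second rehydration library and none in the first. The kinase model LOC_Os03g63020_3 had a ratio of 0.336, LOC_Os06g46754_1 one of 0.416 and LOC_Os01g37460_1 one of 0.432. Of these, LOC_Os01g37460_1 is a sole model, with 1.47 and 1.80 RPKM after rehydration, 4.97 and 4.17 RPKM after dehydration and 6.57 and 5.08 RPKM in the control.

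The 20 transcripts outside the naming rule were all undescribed, and 9 were sole models. Their mean over the 4 dehydration and control libraries was between 5.45 and 16.2 RPKM and no rehydration value exceeded 6.06 RPKM. Among the 16 above 0 in those 4 libraries the ratio ran up to 0.664. The other 4 included LOC_Os07g14150_1, which rested on 52 reads in the first dehydration library and 5 in the second control library and was listed at 0 in the other 4.

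Single models rather than whole loci made up most of the list. Of the 51 transcripts, 34 (66.7%) came from loci with several models and 17 were the sole model of their locus, whereas 43.2% of all transcripts that reached the level of the rule came from loci with several models. These 34 belonged to 33 loci with up to 10 models each. When RPKM was summed over the models of a locus, 5 of the 33 loci still met the rule and 28 did not. These 5 were the loci of IAA13 (LOC_Os03g53150, ratio 0.621), LOC_Os10g36200 (0.587), LOC_Os01g70310 (0.643), LOC_Os06g46754 (0.655) and LOC_Os10g22630, whose sum was 0 in both rehydration libraries and in the first dehydration library. In 23 of the 33 loci the higher rehydration sum was at or above the lowest dehydration or control sum. This count takes in loci with a sum of 0 in another library, among them LOC_Os10g22630, as 0 against 0. Another is LOC_Os03g22010, with sums of 0 and 0.152 RPKM after rehydration, 0 and 0.251 RPKM after dehydration and 25.5 and 16.55 RPKM in the control. RPKM divides each model's reads by that model's length, so a sum weights short models more, and how the authors assigned reads shared by models is not given in the sources used here.

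**Figure D2:**
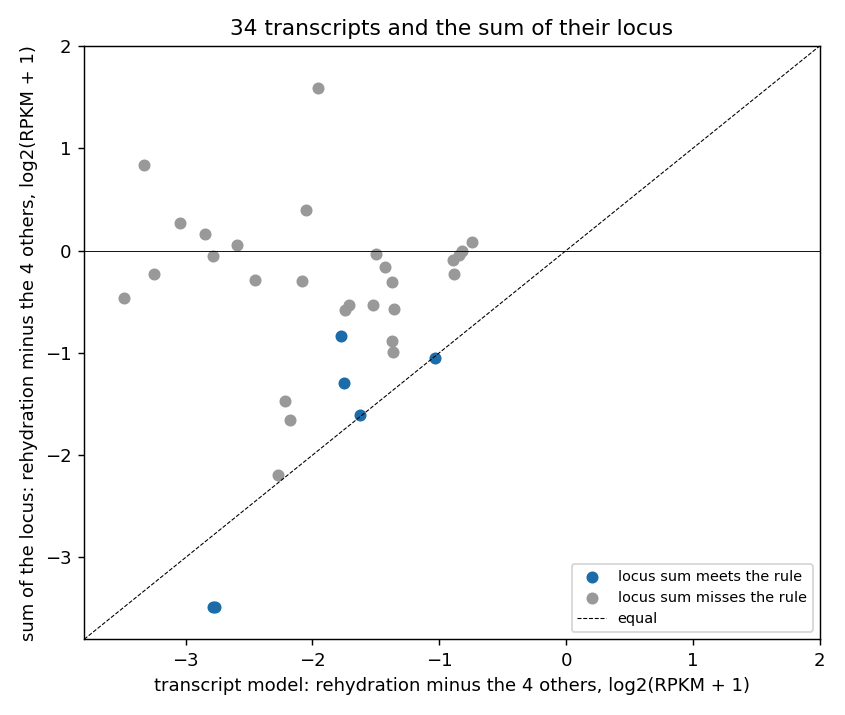
For the 34 transcripts from loci with several models, the mean log2(RPKM + 1) of the rehydration libraries minus that of the 4 other libraries, for the transcript (horizontal axis) and for the RPKM sum of its locus (vertical axis). The dashed line marks equal differences, and the locus sum meets the rule in 5 loci (blue, 6 transcripts) and misses it in 28 loci (grey).

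The ACC oxidase locus shows such a shift among models. While model 1 was low after rehydration, model 3 had 29.0 and 21.7 RPKM after rehydration, 5.12 and 0 RPKM after dehydration and 16.0 and 4.07 RPKM in the control. The locus sum was 50.4 and 49.8 RPKM after rehydration, 44.5 and 54.0 RPKM after dehydration and 44.9 and 50.2 RPKM in the control. The sums of the 3 conditions overlapped.

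The WRKY95 locus had the same form. Its model 2 had 26.4 and 24.8 RPKM after rehydration, 14.4 and 15.2 RPKM after dehydration and 17.8 and 14.1 RPKM in the control, and the locus sum was 32.6 and 27.5 RPKM after rehydration, 29.0 and 25.7 RPKM after dehydration and 31.5 and 21.6 RPKM in the control. A model other than the listed one, at 5 RPKM or more, had its highest values in both rehydration libraries in 3 of the 33 loci, and these were the loci of ACC oxidase, WRKY95 and LOC_Os02g12480. At LOC_Os02g12480, which has 10 models, the sum was 295 and 336 RPKM after rehydration, 49.5 and 86.4 RPKM after dehydration and 432 and 515 RPKM in the control. That locus was therefore lowest after dehydration, and its model 9, the listed one, held at most 14.2% of the sum in any library.

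In the chloride channel locus, model 1 had 19.0 and 20.8 RPKM after rehydration, 11.1 and 20.2 RPKM after dehydration and 14.2 and 15.2 RPKM in the control. Model 2 was at 0 after rehydration and model 1 was not, and the locus sum was 19.0 and 20.8 RPKM after rehydration, 42.5 and 41.1 RPKM after dehydration and 17.3 and 19.6 RPKM in the control. The LEA locus differed, since its main model had 80.6 and 55.6 RPKM after rehydration, 394 and 350 RPKM after dehydration and 0.479 and 0.174 RPKM in the control. The locus as a whole was lowest in the control. The NAC locus was also lowest in the control, with sums of 12.5 and 13.1 RPKM after rehydration, 47.3 and 37.2 RPKM after dehydration and 1.29 and 1.87 RPKM in the control. The MYB-related locus summed to 72.2 and 72.6 RPKM after rehydration, 104 and 106 after dehydration and 70.7 and 55.1 in the control. The kinase locus summed to 57.1 and 51.8 RPKM after rehydration, 88.2 and 87.7 after dehydration and 52.3 and 48.3 in the control. The proline-rich protein locus summed to 79.6 and 77.8 RPKM after rehydration, 86.6 and 103 after dehydration and 100.5 and 82.4 in the control.

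**Figure D3:**
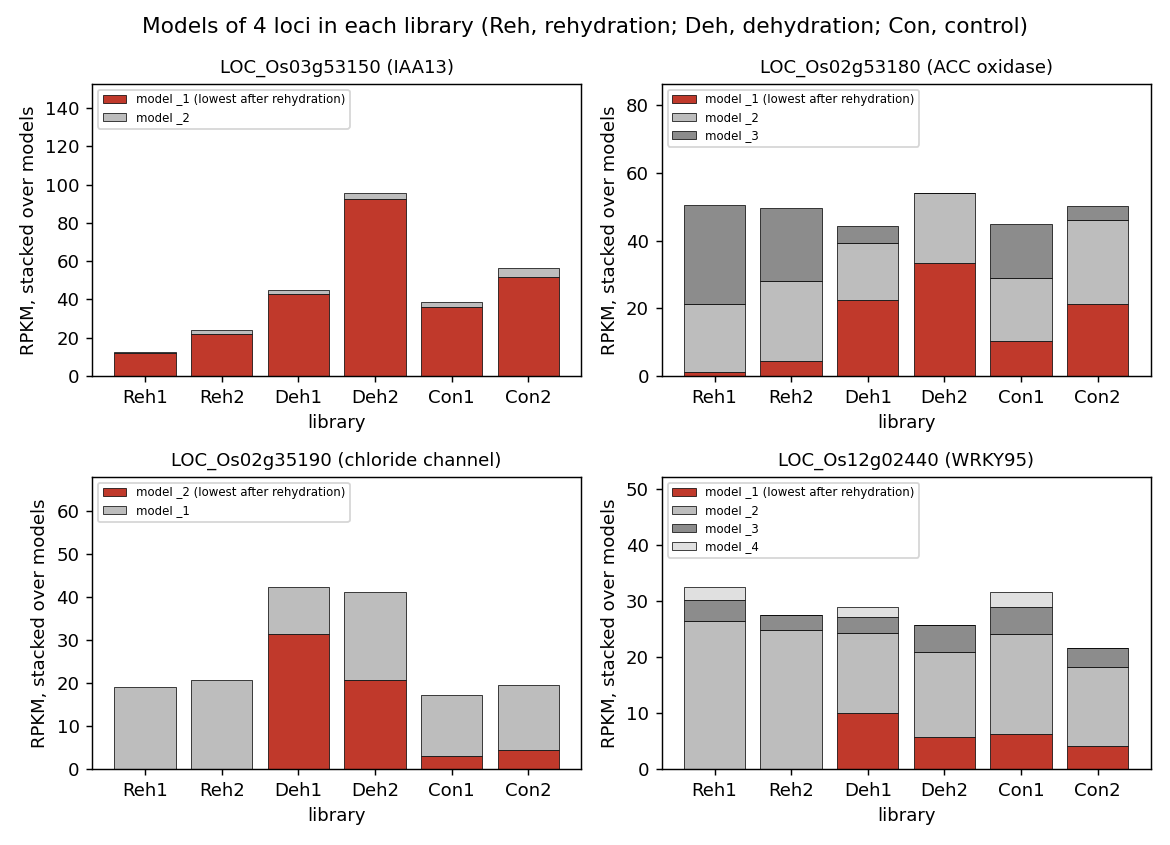
RPKM of every model in 4 loci, stacked, in the 2 rehydration, 2 dehydration and 2 control libraries (Reh, Deh and Con). The listed model (red) makes up most of the IAA13 locus, while in the ACC oxidase, chloride channel and WRKY95 loci other models (grey) hold most or all of the rehydration signal.

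The comparison of dehydration with control asks how the 51 transcripts had behaved before re-watering, and their selection did not use the sign of this difference. It limited it in part, because a listed transcript had to stay at or above its rehydration values in the dried shoots too, 0 against 0 included. Transcripts of at least 1 RPKM in at least 2 libraries were tested with limma on log2(RPKM + 1), and a change was called at a Benjamini-Hochberg adjusted p under 0.01 and a fold over 2. All 51 were tested. After dehydration 6 of the 51 (11.8%) were higher than in the control, beside 8.97% of all 26790 tested transcripts, and 2 of the 51 (3.92%) were lower, beside 13.4%. All 6 had a control mean under 5 RPKM, so they reached the level of the rule only through their dehydration values, and their count says nothing about the list. Of the 2 that were lower, 1 had a dehydration mean under 5 RPKM. At an unadjusted p under 0.05 the numbers were 16 of the 51 (31.4%) and 52.1% of all tested transcripts.

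The 6 that were higher after dehydration included 3 at 0 in both control and both rehydration libraries, the NAC model, the LEA model and LOC_Os09g30438_2 (23.2 and 18.3 RPKM after dehydration). For these 3 the selection fixed the difference, and no fold is given for them. The other 3 also reached the level of the rule only through their dehydration values. Their control means were 4.81 RPKM (LOC_Os12g14220_1), 3.74 RPKM (LOC_Os02g35190_2) and 1.72 RPKM (LOC_Os08g36320_2). Their differences and adjusted p-values below are therefore descriptions and not tests free of the selection. LOC_Os12g14220_1 rose by 3.67 ± 0.39 on the log2(RPKM + 1) scale (SE, limma adjusted p = 0.00142). The chloride channel model LOC_Os02g35190_2 rose by 2.50 ± 0.31 (SE, limma adjusted p = 0.0021). LOC_Os08g36320_2 rose by 4.02 ± 0.57 (SE, limma adjusted p = 0.00328), with 27.0 and 51.3 RPKM after dehydration and 3.08 and 0.362 RPKM in the control, and was at 0 after rehydration. With either dehydration library left out, 2 of the 51 were called higher, and the 3 transcripts at 0 in the control were then not tested because they fell under the filter of 2 libraries. LOC_Os12g14220_1 kept its call, with differences of 4.23 without the first and 3.10 without the second dehydration library. LOC_Os02g35190_2 stood at 2.22 (limma adjusted p = 0.0126) and 2.79 (limma adjusted p = 0.00446), and LOC_Os08g36320_2 at 4.47 (limma adjusted p = 0.0106) and 3.57 (limma adjusted p = 0.0151). Among the 43 transcripts above 0 in the 4 dehydration and control libraries 3 were called higher.

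The 2 that were lower after dehydration were LOC_Os06g16640_1, by -2.03 ± 0.20 on the log2(RPKM + 1) scale (SE, limma adjusted p = 0.00115), and LOC_Os03g22010_1. The second of these had 0 RPKM in both rehydration libraries, 0 and 0.251 RPKM after dehydration and 24.5 and 16.0 RPKM in the control, so it was near or at 0 in both stressed conditions. Without either control library LOC_Os03g22010_1 was not tested, because it fell under the filter. LOC_Os06g16640_1 stood at -2.02 (limma adjusted p = 0.0121) without the first control library and at -2.03 (limma adjusted p = 0.011) without the second, so its size held and its call did not.

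**Figure D4:**
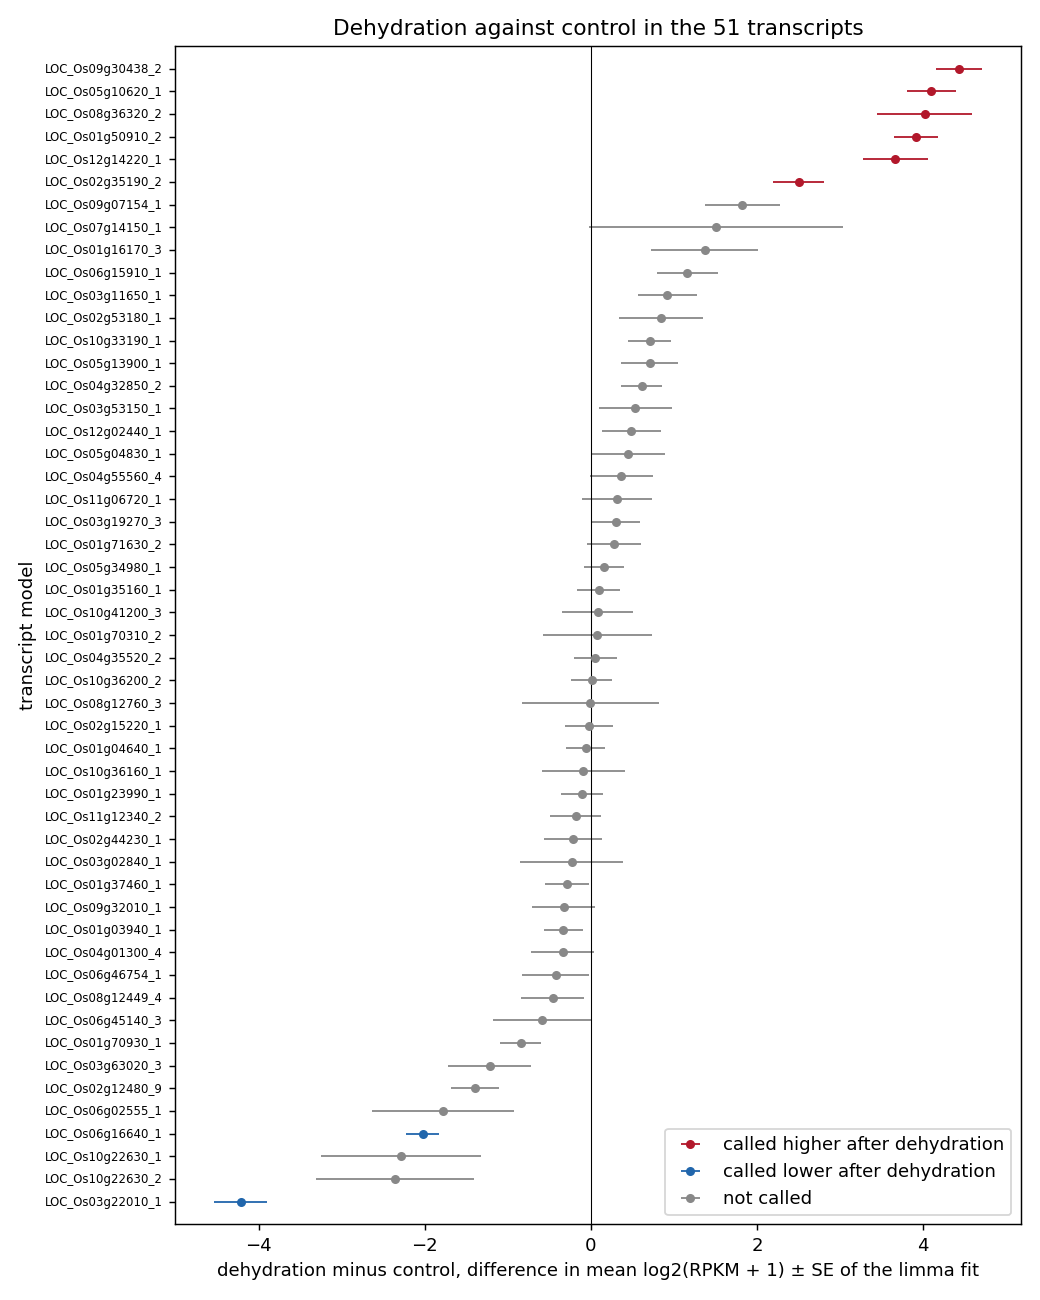
Difference between dehydration and control in mean log2(RPKM + 1) for the 51 transcripts, with 1 row per transcript and bars of 1 SE of the limma fit on 2 libraries per condition. The 6 called higher (red) stand at the positive end, 2 are called lower (blue) and 43 are not called (grey). LOC_Os03g22010_1 (blue) stands at the negative end. The grey LOC_Os10g22630_2 (-2.36) and LOC_Os10g22630_1 (-2.29) lie between it and LOC_Os06g16640_1 (blue, -2.03).

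The remaining 43 transcripts were not called in either direction. For IAA13 the difference was 0.54 ± 0.44 (SE, limma adjusted p = 0.363) and for the ATMAP70 transcript 0.92 ± 0.35 (adjusted p = 0.0793). For model 1 of ACC oxidase it was 0.85 ± 0.50 (SE, limma adjusted p = 0.218). The sum of the ACC oxidase locus differed by 0.04 ± 0.18 (SE, limma adjusted p = 0.846). LOC_Os11g06720_1 differed by 0.32 ± 0.42 (limma adjusted p = 0.574). Both dehydration values lay above both control values in 15 of the 51, which is 29.4% beside 28% of all tested transcripts, and below them in 10, which is 19.6% beside 45.8%. In 26 the values overlapped. The median difference over the 51 was 0.08 on the log2 scale, against -0.30 over all tested transcripts. The rule shaped these shares and this median, so they are descriptions. The control mean was under 5 RPKM in 10 of the 51 and the dehydration mean in 7. A listed transcript also had to stay at or above its rehydration values after drying, which the tested transcripts did not. Exact permutation of 2 against 2 libraries cannot give a p below 0.33 for a single transcript, so the adjusted p-values rest on the spread shared across transcripts in limma.

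Replicates of the listed transcripts differed less after rehydration than after dehydration or in the control, and the order was the same over all transcripts at that level. The median absolute difference between the 2 libraries of a condition was 0.18 on the log2(RPKM + 1) scale after rehydration, 0.48 after dehydration and 0.32 in the control. Over all transcripts that reached the level of the rule these were 0.24 after rehydration, 0.33 after dehydration and 0.26 in the control. The 12 transcripts at 0 in both rehydration libraries have a difference of 0 there. The rule also held both rehydration values low, where differences are small on the log2(RPKM + 1) scale, so no reading is given.

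For the contrasts that chose the transcripts, the counts are given without a reading. Against the control, 4 of the 51 were called lower after rehydration, beside 0.0709% of all tested transcripts. They were LOC_Os06g16640_1, LOC_Os02g12480_9, LOC_Os03g22010_1 and LOC_Os11g12340_2. The last had 0 RPKM in both rehydration libraries, 7.22 and 6.27 RPKM after dehydration and 6.14 and 9.81 RPKM in the control, while the sum of its locus was 17.8 and 28.4 RPKM after rehydration, 7.22 and 12.6 RPKM after dehydration and 26.1 and 46.8 RPKM in the control. Against dehydration, 10 of the 51 were called lower after rehydration, beside 1.01%. They included the 6 that were higher after dehydration than in the control, together with LOC_Os10g33190_1, LOC_Os02g12480_9, LOC_Os11g12340_2 and WRKY95 (LOC_Os12g02440_1). IAA13 was not called in either contrast here, while the study lists its locus among the differentially expressed hormone genes. At the same thresholds the study's edgeR test called far more transcripts lower in both contrasts than limma did here. The comparisons share libraries, so the counts are not independent of each other.

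The transcripts were also set against the lists of ABA-responsive and auxin-responsive genes that the study took from separate microarrays. The study's genes responsive to jasmonic acid and trans-zeatin were not used here. Entries matched here numbered 604 ABA-induced, 580 ABA-repressed, 221 auxin-induced and 99 auxin-repressed. Each of these is fewer than the study reports, so the counts below cover parts of its lists. The auxin-induced list held 2 of them (IAA13 and the ATMAP70 transcript) among 110 entries that reached the level of the rule, and the auxin-repressed list held 1 (the lipid-transfer protein) among 40. The ABA-repressed list held 1 (the trehalose-6-phosphate phosphatase) among 345 and the ABA-induced list 0 among 411. Overall 51 of 14523 transcripts at that level were on the list. No test was made of these shares.

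Of the 175 tested entries of the auxin-induced list, 67 were higher after dehydration than in the control (8.97% over all tested transcripts) and 14 were lower (13.4% over all tested transcripts), with a median log2 difference of 1.27. After rehydration 8 of the 175 were higher than in the control (0.776% over all tested transcripts) and 0 were lower (0.0709% over all tested transcripts), with a median of 0.68. Against dehydration, rehydration had 1 higher (4.32% over all tested transcripts) and 12 lower (1.01% over all tested transcripts). The low level of IAA13 and of the ATMAP70 transcript after rehydration thus stood beside a list whose median lay above the control. Of the 25 auxin metabolism and signaling loci that the study listed, taken by their most abundant model, 7 were higher and 10 lower after dehydration, beside the same 8.97% and 13.4%, and in rehydration against control 0 passed the test in either direction. That list and the list of transcription factors were chosen by the study on these samples. Of 353 listed transcription factor models at the level of the rule 3 were among the 51, and they were the MYB-related, NAC and WRKY95 models.

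The 51 transcripts lay on all 12 chromosomes, with 10 on chromosome 1 and between 1 and 6 on each of the others. The locus names LOC_Os10g36160 (lipid-transfer protein) and LOC_Os10g36200 are close in number on chromosome 10. Between them, LOC_Os10g36170_1 had 267 and 208 RPKM after rehydration, 348 and 196 RPKM after dehydration and 47.4 and 78.3 RPKM in the control, and LOC_Os10g36180_1 had 21.3 and 14.7 RPKM after rehydration, 121 and 131 RPKM after dehydration and 0.296 and 1.50 RPKM in the control. LOC_Os10g36190_1 had 0.290 and 0.211 RPKM after rehydration, 0.502 and 0.183 RPKM after dehydration and 0.272 and 0.0988 RPKM in the control, so its conditions overlapped. The other 2 models between them were lowest in the control, and all 3 were picked after their values were seen.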

How the data were processed

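The authors mapped reads of stranded mRNA libraries to the rice genome in CLC Genomics Workbench and deposited RPKM per transcript model, which scales reads by model length and mapped reads. No further scaling was applied here. The smallest whole read numbers proportional to RPKM times relative depth were recovered for the 51 transcripts. Tests used limma 3.58.1 (R 4.3.3) on log2(RPKM + 1), 1 fit of 3 conditions over 6 libraries with an abundance trend (3 residual degrees of freedom), checked on simulated data. Other steps used Python 3.11.15, numpy 2.4.6 and pandas 2.3.3. The study's edgeR test was not used because it needs counts. Nothing states that replicates were separate cultures beyond separate plant pools, so p-values measure the spread between these libraries. The members and lists were chosen with earlier results of these data known.

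Named are transcripts with a description, the 10 of highest level, the 10 of smallest ratio among those with a rehydration value above 0, up to 5 called in each direction in dehydration against control, those nearest the limits of the rule, and other models of their loci. Others named (LOC_Os11g12340_2, LOC_Os10g22630, LOC_Os01g70310 and LOC_Os07g14150_1) were chosen after their values were seen. Descriptions come from the study's tables as read here, which may not be complete. Promoter motifs and sequences were not analysed here, because 0 loci matched the 39387 genes of the RefSeq table used here. Alternatives were other scalings, pseudocounts, filters, moderation, a replicate block, thresholds, locus sums and leaving out each library, and, chosen after seeing the data, transcripts above 0 in the 4 other libraries and loci of 1 model.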

Additional observations from a re-analysis of the deposited data

How the results depend on the processing

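The rule gave 51 transcripts with RPKM as deposited, 82 with quantile normalization and 75 with median-ratio size factors (49 of the 51 in each), between 72 and 205 when 1 library was left out, 20 with a ratio of 0.5, 22 with a mean of at least 10 RPKM, 27 loci with locus sums (22 of the listed loci) and 17 for loci of 1 model. These scalings moved the median of all tested transcripts by 0.26 and 0.29 in dehydration minus control and by -0.30 and -0.27 in rehydration minus dehydration. The 6 calls of a higher level after dehydration numbered 2 to 6 with 1 library left out (2 without either dehydration library, where 3 of the 6 were not tested), 3 with locus sums, 3 for transcripts above 0 in the 4 other libraries and 1 for loci of 1 model. The 2 calls of a lower level numbered 0 to 4 with 1 library left out (0 without either control library, where 1 of the 2 was not tested), and 1 under each of those other settings. The 4 calls lower after rehydration than in the control numbered 0 to 5 with 1 library left out (0 without either rehydration or either control library), 1 with no filter on low values, 1 with locus sums, 1 for loci of 1 model and 11 at an adjusted p under 0.05. The 10 calls lower after rehydration than after dehydration numbered 0 with no filter, 6 with a mean of at least 10 RPKM, 2 for loci of 1 model and 27 at an adjusted p under 0.05. Leaving out any library except the second dehydration library removed all of these calls, and without that library fewer transcripts were called. A fit without 1 library assumes that the lone library varies like the others. The cause of these shifts was not tested.

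The replicate numbers were not stated to pair libraries. Deviations of same-numbered libraries correlated at 0.197 (rehydration and dehydration), 0.130 (rehydration and control) and 0.058 (dehydration and control). With the replicate number as a block, the 4 counts were 7, 2, 3 and 14 in place of 6, 2, 4 and 10.

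For 31 named transcripts, dehydration minus control kept its sign and call in 326 of 364 alternatives, lost its call in 10 and changed sign in 28. Each change of sign was in a transcript that was not called. With median-ratio scaling the reversed values were 0.015 (LOC_Os01g37460_1), 0.28 (LOC_Os02g15220_1), 0.10 (LOC_Os02g44230_1), 0.0062 (LOC_Os04g01300_4) and 0.25 (LOC_Os10g36160_1). With quantile normalization they were 0.081, 0.35 and 0.082 for LOC_Os01g37460_1, LOC_Os02g15220_1 and LOC_Os02g44230_1, 0.042 for LOC_Os10g36160_1 and -0.037 for LOC_Os10g36200_2. With 1 library left out the difference ran between -0.21 and 0.17 for LOC_Os02g15220_1, -0.62 and 0.19 for LOC_Os02g44230_1, -0.0079 and 1.08 for LOC_Os03g53150_1, -0.85 and 0.17 for LOC_Os04g01300_4, -0.11 and 0.22 for LOC_Os04g35520_2, -1.28 and 0.10 for LOC_Os06g45140_3, -0.90 and 0.046 for LOC_Os06g46754_1, -0.87 and 0.69 for LOC_Os10g36160_1, -0.23 and 0.25 for LOC_Os10g36200_2, -0.46 and 0.62 for LOC_Os10g41200_3 and -0.18 and 0.81 for LOC_Os11g06720_1.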

Other observations

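When RPKM was summed over the models of each locus, 5 loci without a listed model also met the rule. LOC_Os03g54050 had 25.8 and 25.9 RPKM after rehydration, 97.2 and 105 RPKM after dehydration and 43.2 and 39.2 RPKM in the control. LOC_Os05g35200 had 6.16 and 6.15 RPKM after rehydration, 28.7 and 18.9 RPKM after dehydration and 16.0 and 14.1 RPKM in the control. LOC_Os08g38990 had 4.92 and 4.42 RPKM after rehydration, 17.8 and 23.4 RPKM after dehydration and 9.69 and 9.99 RPKM in the control. In these 3 loci all dehydration values lay above all control values. The other 2, LOC_Os02g07480 and LOC_Os07g06620, had sums between 3.15 and 8.20 RPKM after rehydration, 5.30 and 13.3 RPKM after dehydration and 5.82 and 16.4 RPKM in the control. By locus sums, 27 loci were lowest after rehydration, 3462 after dehydration and 1483 in the control.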
